A study of Sus scrofa with 42 samples.

Results

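The nuclear import receptors described here are the 7 importin alpha adaptors KPNA1 to KPNA7, importin beta 1 (KPNB1) and transportin 1 (TNPO1) of the pig, 9 genes out of the 15351 in the table, each found by its symbol. They were chosen on earlier results of the same cells, because KPNA7 was high in early cells and lost by the 8-cell stage and because TNPO1 was higher in parthenogenetic than in fertilized embryos. Those patterns are therefore given as descriptions without a test. The cells were 42 single zygotes and blastomeres from 20 pig embryos, obtained from in vitro matured oocytes either through in vitro fertilization (IVF) or through parthenogenetic activation (PA), and taken at the 1-, 2-, 4- and 8-cell stage, at 19, 27, 48 and 72 h, respectively. PA embryos carry a maternal genome only, while IVF embryos also received a sperm genome. Oocytes came from ovaries of gilts, and no breed or other genotype was given. PA oocytes were activated with electric pulses and then kept for some hours with 6-dimethylaminopurine and cytochalasin B, which the IVF oocytes did not receive. Hours were counted from the end of the time with sperm in IVF and from the pulses in PA. The drugs, the lack of sperm and this timing cannot be told apart. From Y-chromosome genes, the authors typed the IVF 8-cell and some IVF 4-cell embryos as male and all PA embryos as female. The part of sex was not tested. Each of the 1-, 2- and 4-cell groups held 3 embryos, with 3, 6 and 9 cells, respectively. Each 8-cell group held 3 blastomeres of only 1 embryo, so these groups show 1 embryo rather than a stage.

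Proteins above the size limit of the nuclear pore need a receptor to enter the nucleus. An importin alpha binds a classical nuclear localization signal in the cargo and also binds importin beta 1, which carries the complex through the pore, and binding of RAN-GTP inside the nucleus releases the cargo. TNPO1 belongs to the importin beta family and binds its cargo, such as HNRNPA1, directly through another type of signal, without an adaptor. KPNA7 is the adaptor known from oocytes and early cleavage embryos, whereas the other members are found in many tissues.

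Expression was given as FPKM, fragments scaled to gene length and to the mapped reads of the cell. Levels of different genes are thus set beside each other with length taken into account. Differences among genes in amplification or in the assignment of reads were not tested. Reads assigned to genes, recovered from the steps of the FPKM values, were 4648507 to 15216659 per cell (median 10635230). Genes at FPKM of at least 1 were 4748 to 5787 per zygote and 1477 to 2334 per 8-cell blastomere, and the 13 mitochondrial mRNAs made up 3.89% to 14.6% of the FPKM of a 1-cell embryo and 38.6% and 41% of that of the 8-cell embryos. The part of these shifts in the results was not tested beyond the scaling alternatives. Blastomeres PA 4-cell-1-4 and 2-1 nearly repeated PA 2-cell-1-2 and 2-1 (Pearson's r of log2 values 0.999 in both pairs, against at most 0.908 in the other pairs of cells). Most of the main results on PA 4-cell embryos are also given without these 2 cells. Of the 12 oocyte and early embryo markers in the table, BTG4, GDF9 and BMP15 were at 1 FPKM or more in 20, 20 and 19 of 20 embryos, but OOEP, ZP3 and ZAR1 in only 12, 8 and 4. The summed level of the list was 827 to 2571 FPKM per embryo up to the 4-cell stage and 77.3 and 82.5 at the 8-cell stage. Of 9 cumulus and granulosa cell markers, the sum was 0.472 to 23.6 FPKM per embryo. TNFAIP6, INHBA, CD44 and LUM stayed below 1 FPKM in every embryo, while VCAN and STAR reached it in 17 and 16 of 20. AKAP4, the single sperm marker matched, reached 1 FPKM in 1 embryo.

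By sequence the importin alphas fall into 3 pairs or groups. Translated RefSeq coding sequences (Sscrofa11.1) gave 86% identity between KPNA3 and KPNA4, 79.8% to 84.1% among KPNA1, KPNA5 and KPNA6, and 53.4% between KPNA2 and KPNA7. KPNA7, with 507 residues the shortest of the 7, shared 41.4% to 46.5% with the other 5. KPNB1 (876 residues) and TNPO1 (898 residues) shared 27.1%. At these identities, KPNA3 with KPNA4 and KPNA1 with KPNA5 and KPNA6 are the most alike in protein, and the authors' handling of reads shared by such genes is not given in the sources used here.

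Of the 3 members with the most alike courses over embryos, KPNA7 is ENSSSCG00000007607 (chr3:6167385-6201259, minus strand), KPNA2 is ENSSSCG00000029005 (chr12:14283087-14297591, plus strand) and TNPO1 is ENSSSCG00000027293 (chr16:49048679-49151926, plus strand), in the positions of the deposited table on Sscrofa11.1. The 250 bases before the start of these genes are shown, since their FPKM were lower in 8-cell than in 4-cell embryos of both methods. For TNPO1 in IVF this depended on the scaling, as the log2 difference was 0.0158 with cells scaled by their median ratio. The start was the outermost of those given by the deposited table and by RefSeq, which was RefSeq's for KPNA7 and the table's for KPNA2 and TNPO1. Capitals mark matches on either strand to 5 short motifs. They are CANNTG, known as the E-box, and TAATTG, known from the element bound by NOBOX. Further motifs were TATAAA, the core of the box of that name, CCAAT, the motif of NF-Y, and GGGCGG, bound by SP1. The sequences were read from the RefSeq genome 5′ to 3′ on the strand of the gene, at chr3:6201283-6201532, chr12:14282837-14283086 and chr16:49048429-49048678.
KPNA7: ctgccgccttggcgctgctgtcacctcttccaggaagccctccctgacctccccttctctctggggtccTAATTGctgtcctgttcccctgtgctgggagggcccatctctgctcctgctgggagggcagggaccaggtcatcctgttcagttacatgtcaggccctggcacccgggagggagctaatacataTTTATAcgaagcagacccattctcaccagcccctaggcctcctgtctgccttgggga
KPNA2: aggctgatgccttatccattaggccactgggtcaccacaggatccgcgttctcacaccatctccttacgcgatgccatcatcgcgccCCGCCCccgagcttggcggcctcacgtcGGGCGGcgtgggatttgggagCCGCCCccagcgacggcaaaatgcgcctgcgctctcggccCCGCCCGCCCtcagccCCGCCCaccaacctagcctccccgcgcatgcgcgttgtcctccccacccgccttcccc
TNPO1: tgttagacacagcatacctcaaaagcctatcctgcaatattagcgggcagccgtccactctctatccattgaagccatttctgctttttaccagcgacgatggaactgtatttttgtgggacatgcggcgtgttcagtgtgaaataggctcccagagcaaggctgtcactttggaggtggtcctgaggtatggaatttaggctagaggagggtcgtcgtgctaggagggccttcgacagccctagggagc

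The windows differed in their letters. KPNA7 held 1 TAATTG, which begins 181 bases before the start, and 1 TATAAA on the opposite strand, 57 bases before the start, with 4 CG dinucleotides and 60.4% G and C. KPNA2 held 6 matches to GGGCGG, of which 2 overlap, with 27 CG dinucleotides and 69.6% G and C. TNPO1 held none of the 5 motifs, 9 CG dinucleotides and 51.6% G and C. Over the windows of the same length before 19556 protein-coding genes, 6.1% held TAATTG, 9.8% TATAAA, 45.9% GGGCGG, 31.9% CCAAT and 61.9% CANNTG, and the median G and C content was 57.6%.

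KPNA7 was the leading importin alpha mRNA in every zygote and 2-cell blastomere. Its level was 84, 162 and 199 FPKM in the 3 IVF zygotes and 340.0, 468 and 337 FPKM in the 3 PA zygotes. The 2-cell IVF embryos held 331, 324 and 320 FPKM (mean 325 ± 5.63, SD, n = 3) and the PA ones 321, 358 and 202 FPKM (294 ± 81.6). All 1-cell IVF embryos were thus below all 1-cell PA embryos, while at the 2-cell stage the groups overlapped. The IVF embryos differed little from each other at the 2-cell stage, with single blastomeres between 251 and 389 FPKM.

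At the 4-cell stage KPNA7 mRNA was unequal among IVF blastomeres. IVF 4-cell embryos 1, 2 and 3 held 193, 95.1 and 50.8 FPKM. Blastomeres 2-2, 3-1 and 3-4 held 11.7, 3.95 and 1.41 FPKM, against 94.8 to 238 FPKM in the other 6. All 9 PA 4-cell blastomeres held 137 to 952 FPKM, and their embryos 302, 264 and 491 FPKM (352 ± 122; 323 ± 151 without the 2 near repeats). None of the PA blastomeres was as low as the 3 IVF ones.

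By the 8-cell stage KPNA7 mRNA was near 0 in both methods. The 3 IVF blastomeres held 0.377, 0.518 and 0.3005 FPKM, and the 3 PA blastomeres 0.593, 0.820 and 0 FPKM. These values rest on 0 to 44 recovered reads per cell. On the log2(FPKM + 1) scale the difference of the 8-cell from the 4-cell embryos was -6.14 in IVF and -7.86 in PA, values given without a test because the gene was chosen on them.

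**Figure D1:**
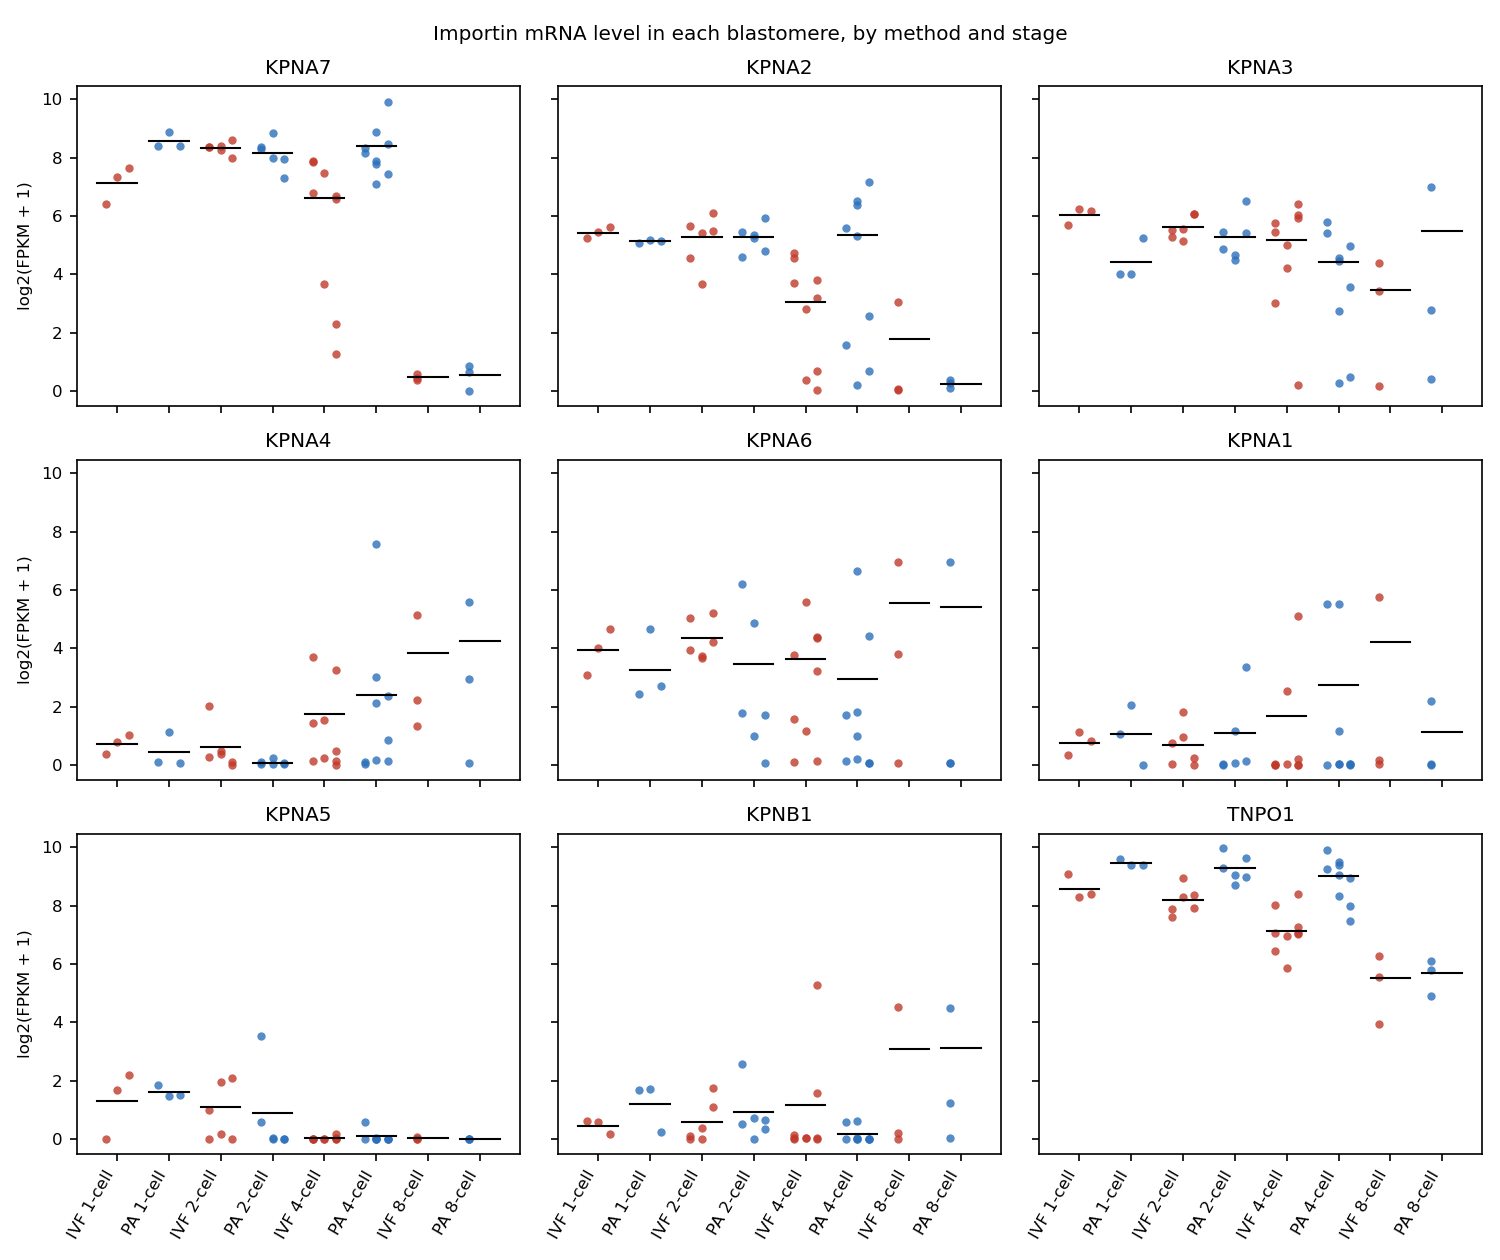
Level of each importin mRNA, as log2(FPKM + 1), in every zygote or blastomere (points, IVF red and PA blue, embryos side by side within a group) with the mean of the embryos (black line), by method and stage. KPNA7 is between 84 and 468 FPKM in all zygotes and 2-cell blastomeres and at most 0.820 FPKM in all 8-cell blastomeres. TNPO1 is present in all 42 cells. KPNA4, KPNA1 and KPNB1 reach 10 FPKM only in single blastomeres of 4- and 8-cell embryos. KPNA6 reaches it in 11 of 18 zygotes and 2-cell blastomeres and in 9 of 24 later ones.

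The makeup of the importin alpha pool shifted accordingly. KPNA7 made up 52.7% ± 5.35 (SD, n = 3) of the summed KPNA FPKM in IVF zygotes and 84.1% ± 2.58 in PA zygotes. At the 2-cell stage its share was 74.6% ± 5.98 and 73.4% ± 9.36, and at the 4-cell stage 59.1% ± 18.5 and 75.5% ± 12, respectively (70.9% ± 17.9 in PA without the near repeats). In the 8-cell embryos it was 0.447% and 0.448%. KPNA7 was the leading KPNA in all 18 1- and 2-cell cells, in 15 of 18 4-cell blastomeres and in none of 6 8-cell blastomeres, of which KPNA3, KPNA4 and KPNA6 led 2 each. The 15 4-cell blastomeres include both near repeats and IVF 4-cell-3-4, where the summed KPNA level was only 2.11 FPKM. The leading gene differed among the 3 sisters within each 8-cell embryo. The summed KPNA level was lower at the 8-cell stage, 89.3 FPKM in IVF and 105 in PA, than in every earlier embryo (131 to 563 FPKM).

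**Figure D2:**
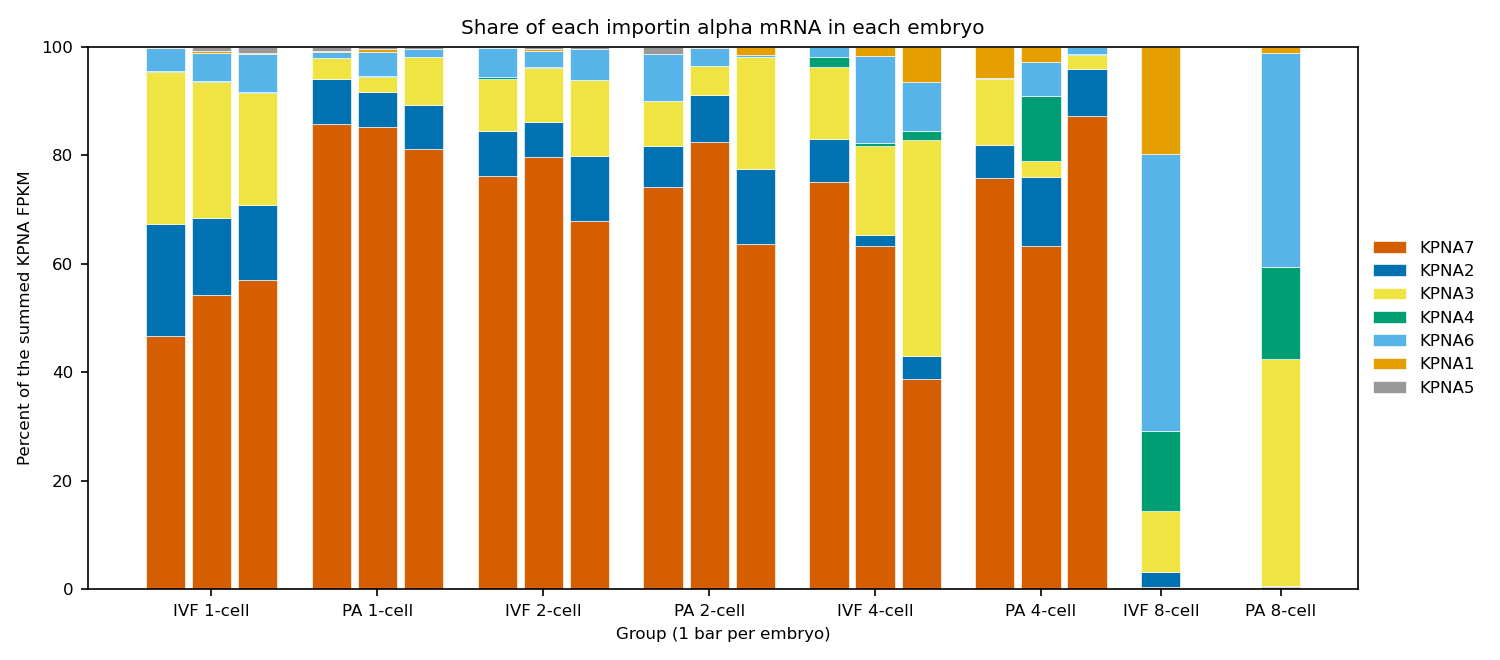
Share of each of the 7 importin alpha genes in the summed KPNA FPKM (percent, bars from 0 to 100), with 1 bar per embryo, by method and stage. KPNA7 takes 38.8% to 87.3% in the embryos up to the 4-cell stage and 0.447% and 0.448% in the 8-cell embryos, where KPNA6, KPNA3, KPNA4 and, in IVF, KPNA1 make up the pool.

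The difference of KPNA7 between the methods was tested with limma's moderated test over embryos, in 1 fit of all 8 groups and 8116 genes, where a gene was called if its fold change reached 2 and its p, adjusted after Benjamini and Hochberg over all genes, was under 0.05. KPNA7 in IVF was 1.43 lower than in PA at the 1-cell stage on the log2 scale (log2 difference -1.43, SE 0.511, adjusted p = 0.857) and 1.78 lower at the 4-cell stage (-1.78, SE 0.511, adjusted p = 0.105). Averaged over the 1-, 2- and 4-cell stages the difference was -1.01 (95% interval -1.63 to -0.393, adjusted p = 0.1502), so none of these was called, although the IVF and PA embryos did not overlap at the 1- and 4-cell stage. Without the near repeats the 4-cell difference was -1.61 (adjusted p = 0.117) and the average -0.95 (adjusted p = 0.151). Leaving out IVF 4-cell embryo 1, the one highest in KPNA7, brought the 4-cell difference to -2.27 (adjusted p = 0.0123) and the average to -1.17 (adjusted p = 0.0307). Such an omission from the lower group can only widen the difference. Scaling cells by their median ratio brought the 4-cell difference to -4.34 (adjusted p = 0.00214) and the average to -2.16 (adjusted p = 0.0192). In all other alternatives neither was called, 15 of 17 for the 4-cell difference and 27 of 29 for the average.

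KPNA2, the importin alpha closest to KPNA7 in protein, was at like levels in 1- and 2-cell embryos and lower by the 8-cell stage in both methods. Group means were lower from the 4-cell stage on in IVF and at the 8-cell stage in PA, the only step that was called. The step from the 2- to the 4-cell stage did not pass the test of a difference between the methods (interaction, log2 -2.30, SE 0.857, adjusted p = 0.893 by limma). Without the near repeats this interaction was -1.32. Its levels were 37.1, 42.3 and 48.03 FPKM in IVF zygotes and 32.6, 35.2 and 34.2 FPKM in PA zygotes. At the 2-cell stage they were 36.4, 26.9 and 55.8 FPKM in the IVF embryos and 33.2, 38.2 and 43.6 FPKM in the PA embryos. IVF zygotes were all above PA zygotes, although the difference was not called (log2 0.31, adjusted p = 1), and the methods overlapped at the 2-cell stage. The smallest value in any of the 18 cells was 11.8 FPKM.

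At the 4-cell stage KPNA2 differed among embryos and sisters. Sisters already differed at the 2-cell stage, with a median log2 range of 0.97 where the median over all genes was 0.62. IVF 4-cell embryos held 20.1, 3.18 and 5.43 FPKM, all below the IVF 2-cell embryos, and PA 4-cell embryos held 24.3, 53.1 and 49.2 FPKM, all above the IVF ones. Without the near repeats the PA 4-cell mean was 36.3 ± 30.04 FPKM instead of 42.2 ± 15.6, and the lowest embryo held 2.01 FPKM, so that the methods then overlapped. Single PA 4-cell blastomeres were low as well, with 2.01, 0.145, 4.99 and 0.615 FPKM in 1-3, 2-3, 3-1 and 3-3. Of the 9, 5 were at 10 FPKM or more, both near repeats among them. The 8-cell blastomeres of IVF held 7.36, 0.0358 and 0.0535 FPKM and those of PA 0.0810, 0.216 and 0.297 FPKM.

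KPNA2 fell between PA 4-cell and 8-cell embryos (log2 difference -5.10, SE 0.857, adjusted p = 6.99e-04 by limma, 3 embryos against 1). Without the near repeats the difference was -4.11 (adjusted p = 0.0447). The fit takes the spread of the single 8-cell embryo from the other groups, and in a fit of these 2 groups alone the adjusted p was 0.0881. The step from IVF 2-cell to 4-cell embryos (-2.24, SE 0.606, adjusted p = 0.0674) and the difference of IVF from PA at the 4-cell stage (-2.31, adjusted p = 0.0836; -1.32, adjusted p = 0.432 without the near repeats) were not called. Without IVF 4-cell embryo 1, the step was -2.91 (adjusted p = 0.00305) and the difference between the methods -2.98 (adjusted p = 0.00335). That embryo was the highest of the lower group in KPNA2, so its omission can only widen both. The mean of log2 values over blastomeres also called the step (-2.53, adjusted p = 0.0283), and median-ratio scaling called the difference between the methods (-3.86, adjusted p = 0.0106). Each stayed uncalled in the other 15 of 17 alternatives.

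KPNA2 differed between IVF and PA in its step from the 4- to the 8-cell stage by 3.85 on the log2 scale, which did not pass the test (interaction, SE 1.21, adjusted p = 0.1002). Without IVF 4-cell embryo 1, the highest of its group, the interaction was 4.52, and it was 2.86 without the near repeats. It stayed uncalled in 14 of 17 alternatives, the one without near repeats included. In the other 3, the omission of embryo 1 included, it was called.

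KPNA3 and KPNA4, which adapt other classical cargo, had different courses from each other. KPNA3 was at 15.1 FPKM or more in all 18 zygotes and 2-cell blastomeres (median 42.2 FPKM) and below 1 FPKM in 5 of 24 later ones, with single 8-cell values between 0.118 and 126 FPKM. It was 50.4, 74.6 and 71.6 FPKM in IVF zygotes and 15.1, 15.1 and 36.8 FPKM in PA zygotes, without overlap, but the difference was not called (log2 1.61, adjusted p = 0.9752), nor was the average over 3 stages (log2 0.90, adjusted p = 0.273). KPNA4 was at most 3.08 FPKM in every zygote and 2-cell blastomere and at 10 FPKM or more in 4 of 24 later ones, with 189 FPKM in PA 4-cell-2-2 and 47.0 FPKM in PA 8-cell-1-1. Its rise in mean from PA 2-cell to 4-cell embryos was from 0.0615 to 17.2 FPKM, with a log2 difference of 2.31 that was not called (adjusted p = 0.404; 2.45, adjusted p = 0.176 without the near repeats).

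KPNA1, KPNA5 and KPNA6 form the third group of adaptors. KPNA6 was at 1 FPKM or more in 16 of 18 early cells and 14 of 24 later ones, and the 8-cell means were 45.5 FPKM in IVF and 41.4 in PA. Each of those means came mostly from 1 sister, with 124 FPKM in IVF 8-cell-1-2 and 124 FPKM in PA 8-cell-1-4, while the other PA sisters held 0.0486 and 0.0570 FPKM. KPNA1 was below 0.1 FPKM in 21 of 42 cells and reached 33.2 FPKM in IVF 4-cell-3-1, 44.4 and 45.2 FPKM in PA 4-cell-1-3 and 2-2, and 52.8 FPKM in IVF 8-cell-1-2. KPNA5 was at 1 FPKM or more in 8 of 18 early cells and in 0 of 24 later ones. A gene on the other strand, ZUFSP, overlaps KPNA5 by 658 bases, and since the strand of the libraries is not given in the sources used here, reads in that stretch cannot be told apart.

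KPNB1, the partner of every importin alpha in classical import, was low by comparison. It was at 1 FPKM or more in 10 of 42 cells, with a median of 0.146 FPKM. The values above 10 FPKM were 37.6 in IVF 4-cell-3-4, 22.1 in IVF 8-cell-1-2 and 21.5 in PA 8-cell-1-4, from 6415, 3916 and 3821 recovered reads. Most of the PA 4-cell level given next came from the near repeats, without which it was 0.00455 ± 0.00604 FPKM (SD, n = 3). PA 4-cell embryos had 0.134 ± 0.127 FPKM and the PA 8-cell embryo 7.62 FPKM, a log2 difference of 2.93 that was not called (SE 1.15, adjusted p = 0.134; 3.10, adjusted p = 0.103 without the near repeats).

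TNPO1 had the highest level of the 9 importins in 14 of 20 embryos and was the only one at 10 FPKM or more in all 42 cells. IVF zygotes held 534, 310 and 335 FPKM, and PA zygotes 777, 664 and 668 FPKM. At the 2-cell stage IVF embryos held 213, 401 and 284 FPKM and PA embryos 811, 471 and 646 FPKM. At the 4-cell stage IVF embryos held 160, 90.2 and 187 FPKM and PA embryos 778, 555 and 306 FPKM. Without the near repeats the PA 4-cell mean was 606 ± 323 FPKM (SD, n = 3) instead of 546 ± 236, and the lowest embryo still held 306 FPKM. The lowest PA embryo was above the highest IVF embryo at each of these 3 stages, as the choice of the gene made likely, with log2 differences of IVF from PA of -0.88, -1.11 and -1.86. At the 8-cell stage the blastomeres of IVF held 75.5, 45.3 and 14.4 FPKM and those of PA 54.0, 67.2 and 28.9 FPKM, and the embryo means were 45.1 and 50 FPKM.

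The steps of TNPO1 between stages are likewise given without a test, because its high PA values were among those that chose it. The difference of the 8-cell from the 4-cell embryos was -3.32 in PA (-3.43 without the near repeats, -2.88 with median-ratio scaling) and -1.60 in IVF, and that of the 4-cell from the 2-cell embryos -0.30 in PA and -1.05 in IVF. With median-ratio scaling the IVF steps were 0.0158 and 0.48, and the PA step from the 2- to the 4-cell stage was 3.12, so their direction depended on the scaling.

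**Figure D3:**
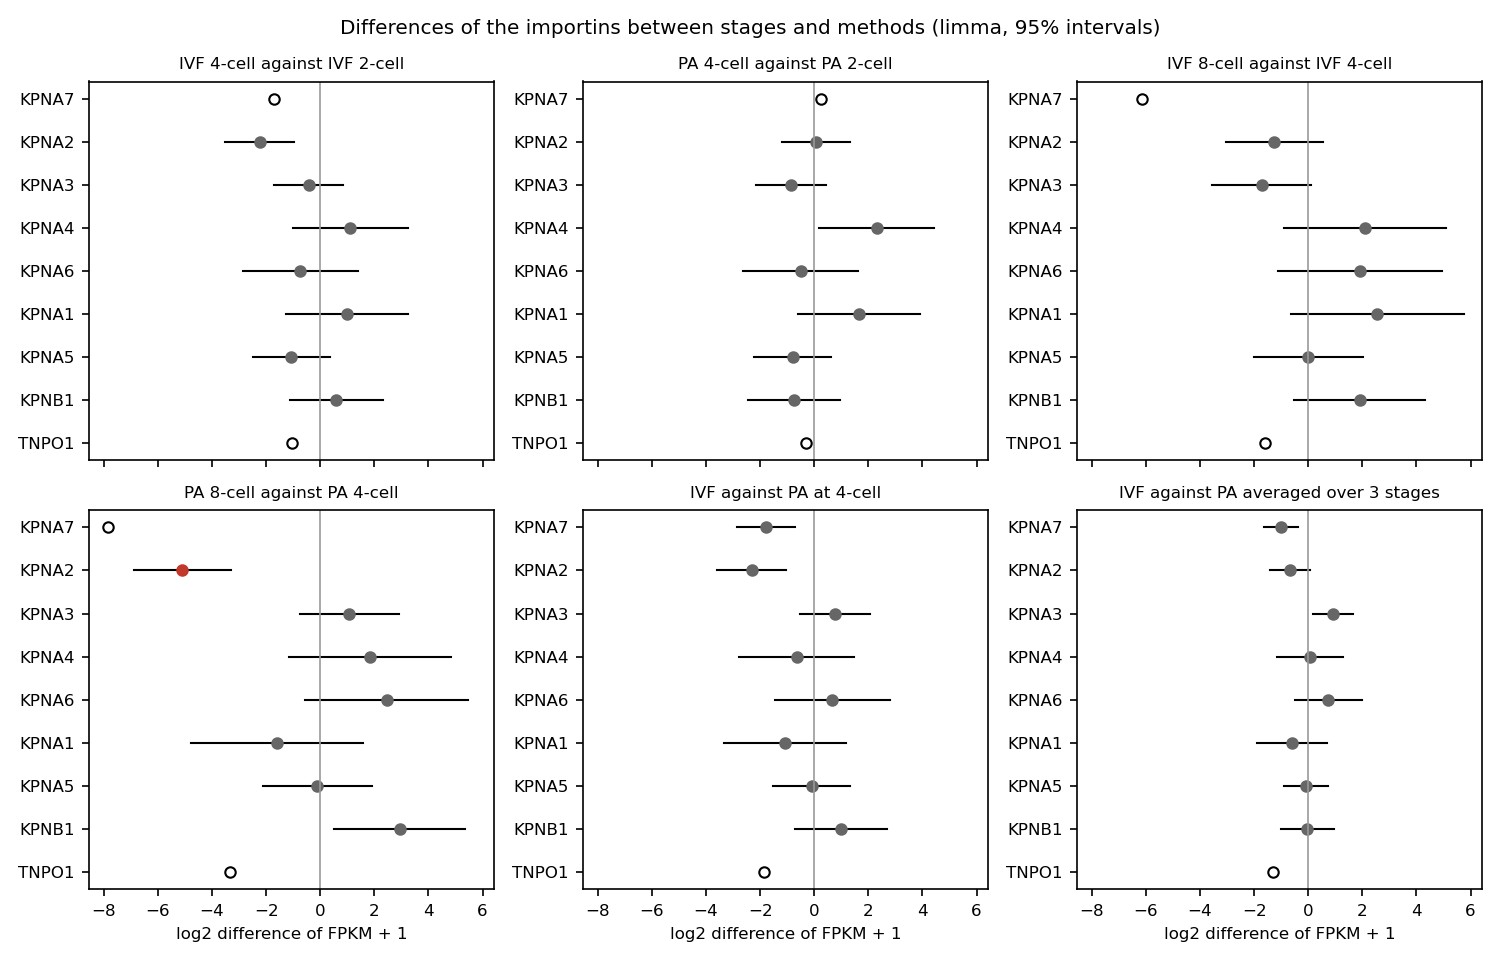
Log2 differences of FPKM + 1 for the 9 importins in 6 comparisons, with 95% intervals from limma (lines), calls in red, other tested values in grey and untested values as open circles. In PA 8-cell against 4-cell embryos KPNA2 (-5.10) is called, and no member is called in the other 5 comparisons. KPNA7 in the steps between stages and TNPO1 throughout are not tested.

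Between stages, 7 importins were tested, as KPNA7 and TNPO1 were left out. In PA 8-cell against 4-cell embryos 1 of 7, KPNA2, was called, where 9.99% of the 8116 genes were. In IVF 8-cell against 4-cell embryos, 0 of 7 were called by limma and 0 had an unadjusted p below 0.05, where 6.97% of all genes were called. For the 2-cell to 4-cell step, 0 of 7 were called in IVF (1 at an unadjusted p below 0.05) and 0 of 7 in PA (1), where 1.11% and 0.394% of all genes were called. In that PA step 7.47% of all genes and still 0 of 7 importins were called without the near repeats. For the 1-cell to 2-cell step, 0 of 7 were called in either method (0 at an unadjusted p below 0.05 in both), where 0% in IVF and 0.0986% in PA of all genes were called.

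Between the methods, TNPO1 was left out and 0 of 8 importins were called by limma at the 1-cell (2 at an unadjusted p below 0.05), 2-cell (0) and 4-cell stage (2) and on average (2), where 0.0493%, 0%, 0.554% and 0.037% of all genes were called. For the interactions of method with stage, 0 of 7 importins were called, with 0, 1 and 2 at an unadjusted p below 0.05, where 0%, 0% and 2.86% of all genes were called, from the first to the last step. At these shares, counts of 0 or 1 do not tell so few importins apart from other genes. At the 4-cell stage 4.13% of all genes and 0 of 8 importins were called without the near repeats. These comparisons share embryos with one another, as the PA 4-cell embryos enter the steps on both sides and the difference from IVF.

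Sisters of 4-cell embryos had wider ranges in most importin alphas than the median over all genes. A range grows with the number of sisters, 2 per 2-cell and 2 to 4 per 4-cell embryo, so it does not compare the stages. Genes near 0 have small ranges, and 1124 to 3975 genes per 4-cell blastomere were at 1 FPKM or more. The median over all genes is therefore not one of genes at like levels. The median range between sisters, as log2(FPKM + 1), was 4.30 for KPNA6, 3.87 for KPNA2, 3.79 for KPNA1, 3.50 for KPNA3, 2.72 for KPNA4 and 2.12 for KPNA7 over the 6 4-cell embryos, where the median over all genes was 1.14. It was 1.26 for TNPO1. At the 2-cell stage these ranges were 1.38 for KPNA6, 0.97 for KPNA2, 0.39 for KPNA7 and 0.54 for TNPO1, against 0.62 over all genes. Without the near repeats, 5 embryos remained with 2 or more sisters, the ranges were 4.35 for KPNA6, 3.75 for KPNA2, 4.28 for KPNA3, 2.49 for KPNA1 and 1.38 for TNPO1, and the median over all genes was 0.61. KPNA5, at 0 or near it in these embryos, had ranges of at most 0.57.

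**Figure D4:**
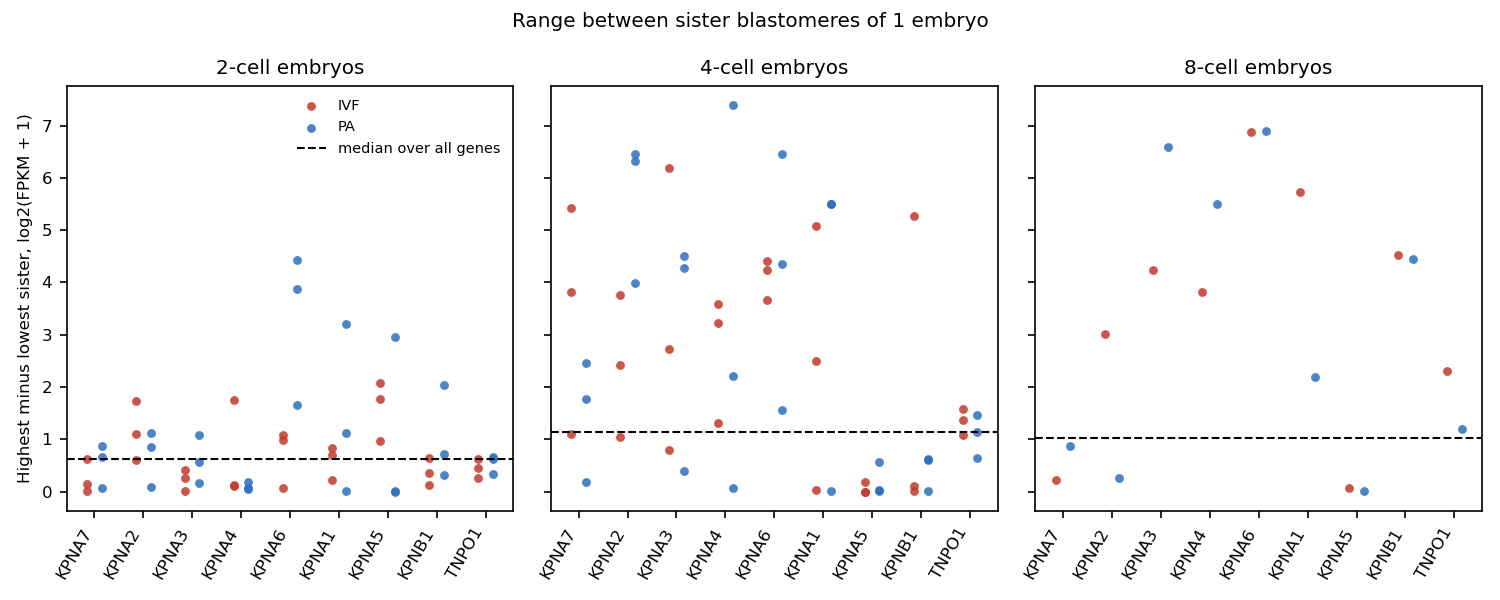
Difference between the highest and the lowest sister blastomere of each embryo, as log2(FPKM + 1), for each importin (points, IVF red and PA blue), with the median over all genes tested (dashed line), at the 2-, 4- and 8-cell stage. At the 4-cell stage the median over embryos is 4.30 for KPNA6 and 1.26 for TNPO1, against 1.14 over all genes.

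Across the 20 embryos KPNA7, KPNA2 and TNPO1 had similar courses in FPKM, with the near repeats kept. Pearson's r of log2 values was 0.863 for KPNA7 with KPNA2, 0.805 for KPNA7 with TNPO1 and 0.818 for KPNA2 with TNPO1. It is a description, since stage and method are shared by all genes and values of KPNA7 and TNPO1 chose the part. With median-ratio scaling, under which r was not computed, TNPO1 did not fall from the 4- to the 8-cell stage in IVF (log2 0.0158). It then rose from the 2- to the 4-cell stage in PA (3.12). KPNA4 ran the other way from KPNA7 (r -0.579), as did KPNB1 (-0.676). Likeness was ranked only among genes with a symbol, without those named by an Ensembl identifier. Among these, the genes most like KPNA7 were UGP2 (r 0.954), BMP15 (0.949), an oocyte growth factor, and DNMT1 (0.932), the maintenance DNA methyltransferase. The genes most like TNPO1 were OOSP2 (0.894), ZNF664 (0.889) and TP53INP1 (0.886), and those most like KPNA2 were ZNF664 (0.935), FAM13C (0.924) and ALDH7A1 (0.919). For KPNA3, KPNA4, KPNA5, KPNA6, KPNA1 and KPNB1, the best matches were SLC24A5 (0.839), SLC9A3R1 (0.933), HSDL1 (0.900), NAA15 (0.766), URI1 (0.855) and BDH1 (0.846).

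The other genes of nuclear transport comprised 9 further import receptors, 7 export receptors, 8 genes of the RAN cycle, 28 nucleoporins and 10 TNPO1 cargoes that entered the test. Of these 62 genes, 6 rose and 5 fell between PA 4-cell and 8-cell embryos, with a median log2 difference of 0.0782 where that of all genes was -0.154 and 9.99% of all genes were called. When the near repeats were left out, 9 rose and 5 fell (median 0.20; all genes -0.00293), and all 11 of the former calls were among them. In the same step of IVF, 2 rose and 3 fell (median -0.386; all genes -0.382, of which 6.97% were called). In the step from IVF 2-cell to 4-cell embryos 1 rose, HNRNPA2B1, an RNA-binding protein and TNPO1 cargo, from a mean of 5.25 to 108 FPKM (log2 3.84, SE 0.702, adjusted p = 0.0104 by limma), where 1.11% of all genes were called. HNRNPA2B1 was also higher in all PA 4-cell than in all PA 2-cell embryos, without a call. Its mean log2(FPKM + 1) was 2.11 in PA 2-cell and 5.29 in PA 4-cell embryos, with the near repeats kept. The interaction of method with this step was called for none of the 62 genes, so the rise is not shown to be specific to IVF. Of the 62 genes, none was called by limma in the PA 2-cell to 4-cell step, where 5 had an unadjusted p below 0.05 (1 rose and 5 fell without the near repeats, where 7.47% of all genes were called). All these calls take their spread from all groups. In fits of only the groups compared, 0 of 5 calls in IVF 8-cell against 4-cell embryos, 1 of 11 in PA (AAAS) and 0 of 1 in IVF 4-cell against 2-cell embryos were made.

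Among import receptors, IPO8 fell in both 8-cell embryos, from 30.3, 8.93 and 11.2 FPKM in IVF 4-cell embryos to 0.122 FPKM (log2 -3.80, adjusted p = 0.00902 by limma) and from 69.7, 60.2 and 18.9 FPKM in PA 4-cell embryos to 0.0882 FPKM (log2 -5.34, adjusted p = 4.80e-04). IPO5, a receptor for histones and ribosomal proteins, was at most 0.0567 FPKM in the 3 PA 4-cell embryos. It rose to 88.2 FPKM in the PA 8-cell embryo (log2 6.42, adjusted p = 0.0125 by limma). The IVF 8-cell embryo held 49.2 FPKM of IPO5, against 0.0214, 73.0 and 8.745 FPKM in IVF 4-cell embryos, without a call. SNUPN, which imports spliceosomal snRNPs, rose in IVF from a mean of 2.21 to 38.8 FPKM (log2 4.26, adjusted p = 0.01 by limma).

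Of 28 nucleoporins, the subunits of the pore, 4 fell and 1 rose in PA and 2 fell and 1 rose in IVF. In PA, NUP107 fell from 123, 62.8 and 58.6 FPKM to 0.214 FPKM (log2 -6.00, adjusted p = 1.06e-05 by limma), and NUP153, NUP133 and NUP214 fell as well (log2 -4.38, -3.63 and -2.89, the second lost in 8 of 14 alternatives). AAAS rose there from at most 0.00529 to 3.33 FPKM. In IVF, NUP214 and NUP50 fell (log2 -3.80 and -4.16), and NUP43 rose by 4.75 on the log2 scale. The steps differed between the methods by the interaction test for NUP107 (log2 7.01, adjusted p = 4.44e-04 by limma), NUP50 (-7.27, adjusted p = 0.0202) and NUP43 (6.35, adjusted p = 0.0467), where 2.86% of all genes were called. That test rests on 1 IVF and 1 PA 8-cell embryo, whose spread is taken from the other groups, so it compares these embryos. Without the near repeats NUP43 was no longer called (5.83, adjusted p = 0.0834), and NUP107 (6.08) and NUP50 (-9.08) were. In the RAN cycle, RANBP1 and RANBP3 rose in PA by 2.86 and 5.24 on the log2 scale, and so did the cargoes HNRNPH1 and HNRNPD by 4.12 and 5.12. Of 7 export receptors, 0 were called by limma there and 1 had an unadjusted p below 0.05. HNRNPH1 was also high in the IVF 8-cell embryo (89.5 FPKM, against 3.64, 31.6 and 62.8 FPKM in IVF 4-cell embryos), without a call.

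**Figure D5:**
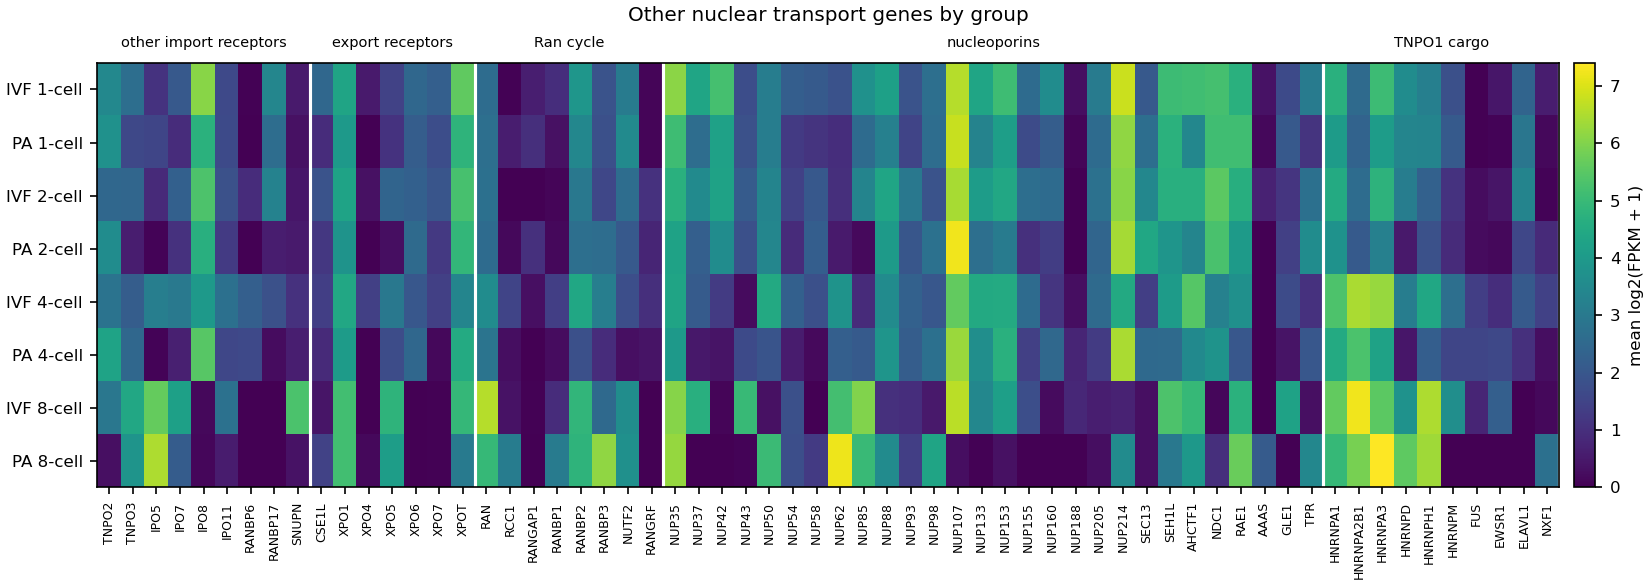
Mean log2(FPKM + 1) over embryos of the 62 other nuclear transport genes (columns, by list) in the 8 groups (rows), from dark blue at 0 to yellow. NUP107 is high in every group but the PA 8-cell embryo, where it is at 0.214 FPKM, and IPO8 is low in both 8-cell embryos.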

How the data were processed

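Single zygotes and blastomeres were lysed, cDNA was amplified and libraries were sequenced by the authors, who mapped reads to Sscrofa11.1 with HISAT2 and deposited 1 table of FPKM values per gene and cell. Versions, annotation release and strandedness are not given in the sources used here, and the deposited extraction text describes another procedure (oocytes and Trizol) than the methods of the study, which were followed. No column held values of cells outside the series. Whole reads were recovered from the FPKM for 99.8% of 14692 expressed genes (tolerance 0.002 of a read). The reads come from amplified cDNA without stated molecular identifiers, so only the spread between embryos was used for errors. Nothing says that embryos of a group came from separate donors, so p-values measure the spread between these embryos.

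FPKM were averaged over the blastomeres of an embryo, the unit of replication. Log2(FPKM + 1) was tested with limma 3.58.1 in R 4.3.3 (mean-variance trend, all 8 groups in 1 fit), for the 8116 genes at FPKM of at least 1 in 3 or more cells, and all 9 importins passed this filter. Fold changes on this scale understate those of low genes. Contrasts were the 3 steps between stages in IVF and in PA, the difference between the methods at the 1-, 2- and 4-cell stages and averaged over them, and the interactions of method with step. IVF and PA 8-cell embryos, 1 each, were not contrasted directly, but both enter the last interaction. TNPO1 was to be tested between stages and was then left out, since its PA values were among those that chose it. The fit was tested on simulated data.

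The members and gene lists were chosen with earlier results of these data known. The text names all members and the called genes of each list. For each member it also names those with the highest Pearson correlation over 20 embryos among genes with a symbol. Of the listed genes, members and markers included, 88 were matched by symbol in the table and 9 by Ensembl identifier (18 were not matched). Promoter windows and coding sequences were read from RefSeq of the same build (Biopython 1.88, BLOSUM62 alignment, identical over aligned residues). The start of KPNA1 is partial in RefSeq. Alternatives were the pseudocount (0.1, 5), the filter (none, FPKM of at least 5), 2 scalings, averaging, single blastomeres with a correlation within embryos, fewer groups, no near repeats, an embryo block and leaving out each embryo. Figures were drawn with matplotlib 3.10.9 in Python 3.11.15 with numpy 2.4.6 and pandas 2.3.3.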

Additional observations from a re-analysis of the deposited data

Results flagged for a closer look

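In 36 groups of 6 or 9 blastomeres of 1 gene, stage and method, 9 had 1 blastomere far from the others by Dixon's gap over range of log2(FPKM + 1). Chance flags about 1 in 20 groups of independent values, a rate that does not hold here, because the blastomeres are sisters from 3 embryos. Each was the highest of its group. They were KPNA1 in IVF 4-cell-3-1 (33.2 FPKM) and in PA 2-cell-3-2 (9.24 FPKM), KPNA4 in IVF 2-cell-1-1 (3.08 FPKM) and in PA 4-cell-2-2 (189 FPKM), KPNB1 in IVF 4-cell-3-4 (37.6 FPKM) and in PA 2-cell-1-1 (4.95 FPKM). KPNA5 stood apart in PA 2-cell-1-1 (10.5 FPKM), and, below 1 FPKM, in IVF 4-cell-3-3 (0.134 FPKM) and in PA 4-cell-1-4 (0.494 FPKM), which is a near repeat of a 2-cell blastomere.

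The interaction test found unlike steps from the 4- to the 8-cell stage in IVF and PA for NUP107 (log2 difference of steps 7.01), NUP50 (-7.27) and NUP43 (6.35), with adjusted p of 4.44e-04, 0.0202 and 0.0467 by limma. It rests on 1 IVF and 1 PA 8-cell embryo, with the spread taken from the other groups.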

How the results depend on the processing

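Of the alternatives for the counts of called importins, 227 gave exactly the reported count, 11 a higher and 1 a lower one. A fit of only the groups compared left 0 calls in PA 8-cell against 4-cell embryos. The mean of log2 values gave 1 in IVF 4-cell against 2-cell embryos. Median-ratio scaling gave 1 in PA 4-cell against 2-cell embryos, 2 in IVF against PA at the 4-cell stage, 1 on average over stages and 1 in the last interaction, and the test without a filter gave 1 there. Leaving out 1 embryo gave 0 to 1 calls in IVF 4-cell against 2-cell embryos, 0 to 1 in IVF 8-cell against 4-cell embryos, 1 to 2 in PA 8-cell against 4-cell embryos, 0 to 2 in IVF against PA at the 4-cell stage, 0 to 1 on average and 0 to 1 in the last interaction. The cause was not tested. The share of KPNA7 stayed within 1 SD in all 43 alternatives, but many of these could not have failed. Leaving out 1 embryo of a group moves the mean by less than 1 SD, and scaling a cell leaves its shares unchanged. The 8-cell groups, with 1 embryo each, have no SD of their own. The count therefore does not show how stable the share is.

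Embryo numbers are not stated to link groups, and of 15 pairs of groups 1 had every correlation of same-numbered embryos over 0.1 (range -0.041 to 0.355). With the embryo number as replicate block, 1 importin was called in PA 8-cell against 4-cell embryos, KPNA2 (adjusted p = 0.00205), and 0 in the other comparisons. The median log2 difference of all genes in IVF against PA at the 4-cell stage was 0.233, and -0.149 with median-ratio scaling. The single genes called as reported kept call and direction in 237 alternatives and lost the call in 67, and those not called stayed so in 163 and gained one in 11. Calls over all genes in PA 4-cell against 2-cell embryos were 32, and 600 without the near repeats, 537 with median-ratio scaling. In IVF against PA at the 4-cell stage they were 45, and 332 without the near repeats, and on average over stages 3, and 58. With 1 embryo at the 8-cell stage, the median SE of a log2 difference was 1.15, against 0.816 between groups of 3.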
